A study of Mus musculus with 4 samples.

Results

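The cortical microtubule stabilizing complex is a set of scaffold proteins at the plasma membrane, and the mRNAs of its liprin, KANK, ELKS and LL5 members were compared between cell protrusions and cell bodies in the mouse melanoma line YUMM1.7. The 10 genes were taken by symbol, namely *Ppfia1*, *Ppfia3*, *Ppfibp1*, *Ppfibp2*, *Kank1*, *Kank2*, *Kank3*, *Erc1*, *Phldb1* and *Phldb2*, and all 10 were found among the 16537 genes of the deposited table. *Ppfia1* was also a candidate of the study, picked from these same libraries, so its direction here is not independent evidence. YUMM1.7 came from a melanoma of mice engineered to carry, among other changes, active *Braf* and no working *Cdkn2a*, and the labels give all samples the genotype wildtype. Cells were grown overnight on membranes with fibronectin on their underside. Protrusions grew through the pores, cell bodies were scraped from the upper side, and what stayed in the swabbed membrane was taken as protrusions. Each fraction had 2 libraries of total RNA, each from 6 inserts.

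These complexes form flat patches that surround focal adhesions and lie beneath the cell cortex, where they hold the growing ends of microtubules. LL5 proteins bind phosphoinositides of the membrane, and ELKS and the liprins are coiled-coil scaffolds built on them. KANK proteins bind talin inside integrin adhesions and, through liprin-β1 and the kinesin KIF21A, tie the patches to the rim of the adhesion. In migrating cells the patches are known to collect near the leading edge.

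The 4 libraries held 25854896 to 30994909 reads assigned to genes, as worked back from the TPM ratios between libraries. TPM is the share of a library's RNA that a transcript makes up, scaled for its length and for the size of the library. A higher value in protrusions therefore cannot be told apart from less of other RNA in that fraction. In the same way, fewer cells and less RNA per cell cannot be told apart. Of 8 melanocyte markers listed, 4 were found among the deposited genes. *Mitf* was at 5.12 to 6.17 TPM and *S100b* at 2.55 to 5.86 TPM, whereas the pigment genes *Tyr* and *Pmel* were at most 0.762 and 0.0696 TPM in any library. A list of 10 liver markers summed to 58.1 TPM in protrusions replicate 1 and to at most 3.19 TPM in the other libraries. Log2 fold changes are of TPM + 0.5 and were tested with limma over 11400 genes, those with a mean of 1 TPM or more. An mRNA passed the test when its p, adjusted over all these genes by Benjamini-Hochberg, was under 0.05, and the intervals given are 95% confidence intervals. The labels call the replicates biological but do not say that they came from separate cultures, so p-values measure the spread between these samples, which may be technical.

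Of the 10 genes, 7 reached the minimum of 1 TPM. *Ppfia1* was higher in protrusions and 0 were lower, against 2.99% of all genes tested that were higher and 4.25% that were lower. *Kank2* lay 1.53-fold above cell bodies and missed the threshold narrowly (limma adjusted p = 0.0506). With the replicate number as a block, 2 of the 7 were higher, *Ppfia1* and *Kank2*, against 8.08% of all genes, and 0 were lower, against 13.3%. At an unadjusted p under 0.05, limma gave 2 higher and 0 lower, against 12.6% and 18.7% of all genes, and limma voom on the recovered reads called 2 higher and 0 lower, against 6.8% and 7.8% of all genes. The median log2 fold change of the 7 was 0.03, and that of all genes tested was -0.07. In 3 of the 7 both protrusion values lay above both cell body values, which 26.4% of all genes showed, and in 1, *Kank1*, both lay below, which 37% of all genes showed.

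**Figure D1:**
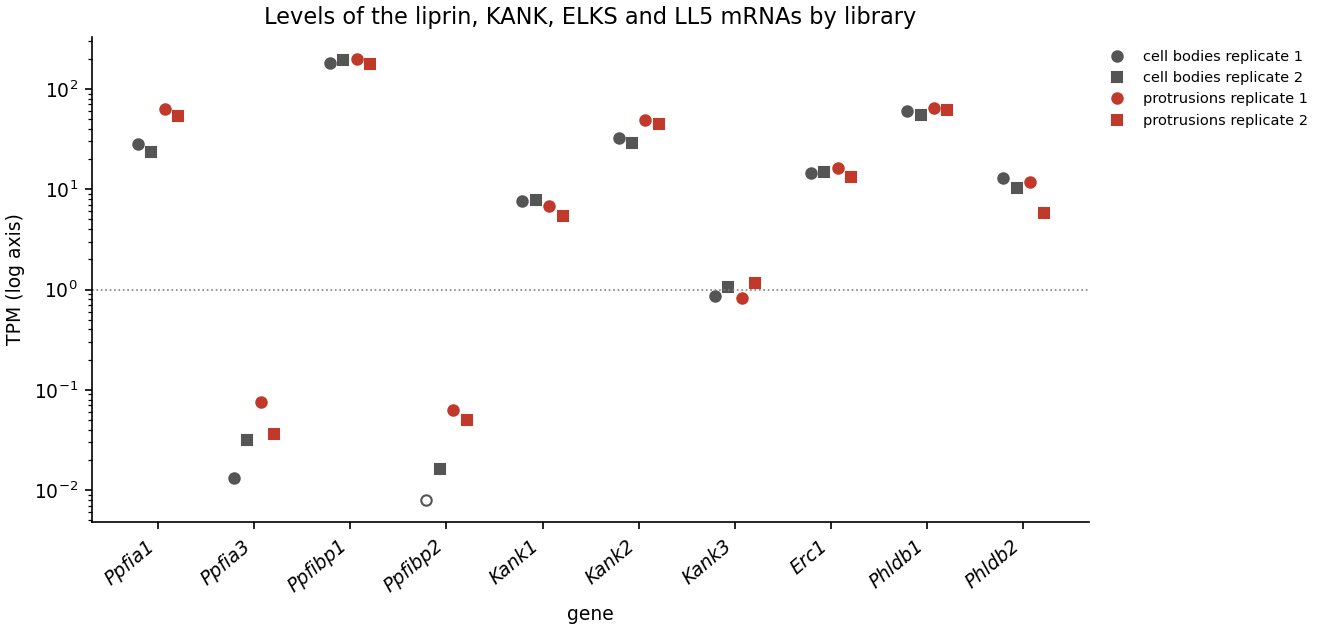
TPM of the 10 mRNAs (log axis) in cell bodies (gray) and protrusions (red), with circles for replicate 1 and squares for replicate 2. The dotted line marks 1 TPM, and the open circle is a value of 0 drawn at the foot of the axis. *Ppfibp1* is the highest in every library. Both red points lie above both gray points for *Ppfia1*, *Kank2* and *Phldb1*, and for *Ppfia3* and *Ppfibp2*, which had few reads.

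*Ppfia1* encodes liprin-α1, a scaffold that binds ELKS and receptor tyrosine phosphatases and is known for its part in cell spreading. Its mRNA was at 28.0 and 23.5 TPM in cell bodies replicates 1 and 2 and at 63.8 and 53.2 TPM in protrusions replicates 1 and 2. Both protrusion libraries were thus well above both cell body libraries, with 2270 and 1602 reads in cell bodies against 4525 and 4764 in protrusions. The log2 fold change was 1.17 (SE 0.16, interval 0.78 to 1.55, limma adjusted p = 0.0342, and 0.000645 with the replicate block). That is a rise of 2.25-fold with an interval of 1.72-fold to 2.93-fold. The replicates gave nearly the same log2 difference, 1.17 in the first and 1.16 in the second. By fold *Ppfia1* stood at rank 47 of the 11400 genes, and it was the only one of the 7 at 2-fold or more, which 0.895% of all genes reached. It did not pass the test with any 1 library left out. Such fits leave a fraction with 1 library and called few of all genes or none, so they say little of *Ppfia1* itself. The log2 fold change then lay between 1.04 and 1.30. Without protrusions replicate 1, the library with liver markers, it was 1.04.

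*Ppfia1* lies on the minus strand of chromosome 7 (mm10, 144476754 to 144553729), and GENCODE lists no other gene that overlaps it. The same holds for *Kank2*, whereas each of the other members overlaps another annotated gene. For *Ppfibp1* this includes a pseudogene on the same strand. The genes nearest to the pattern of *Ppfia1* over the 4 libraries were *Abhd17c*, *Gltp* and *Coro2a*. Their Euclidean distances were 0.10, 0.10 and 0.11 on the log2 scale, measured from the mean of the cell bodies. *Abhd17c*, which encodes an enzyme that removes palmitate from proteins, had a log2 fold change of 1.13, *Gltp*, a gene for a glycolipid transfer protein, 1.19, and *Coro2a*, which encodes a coronin, 1.16. With 4 libraries, such a likeness describes little beyond a similar fold.

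*Ppfia3*, which encodes the mainly neuronal liprin-α3, was close to absent. It had 1 and 2 reads in cell bodies and 5 and 3 in protrusions, at 0.0133 to 0.0761 TPM. From 3 reads against 8, the ratio of protrusions to cell bodies was 2.59 with a 95% interval of 0.621 to 15.2, which covers counting error only. *Ppfia1* thus made up 99.8% to 99.9% of the summed TPM of the α-liprins in each library, with *Ppfia4* at 0.0254 to 0.0611 TPM.

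*Ppfibp1*, the gene for liprin-β1, which joins liprin-α1 to the KANK proteins, was the most abundant of the 10 mRNAs in every library. It was at 179.8 and 192 TPM in cell bodies and at 199.7 and 179 TPM in protrusions, so the fractions overlapped. The log2 fold change was 0.03 (interval -0.26 to 0.31, limma adjusted p = 0.907), and the interval lies within 0.837-fold to 1.24-fold. It rests on at least 12144 reads in each library. *Ppfibp2*, which encodes liprin-β2, had 0 and 1 reads in cell bodies and 4 and 4 in protrusions. The 0 in cell bodies replicate 1 allows up to 0.0411 TPM, the value of 3 reads there. The ratio from 8 reads against 1 was 7.77 with an interval of 1.04 to 345 for counting error, so its size was not measurable at this depth.

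*Ppfia1* mRNA was at 0.156 and 0.122 times the TPM of *Ppfibp1* in cell bodies and at 0.319 and 0.297 times in protrusions. The ratio was 2.23-fold higher in protrusions, and the fractions did not overlap. The ratios between genes are descriptions and were not tested.

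*Kank2* encodes a KANK protein of mesenchymal cells that binds talin at the rim of focal adhesions. It was at 32.5 and 28.6 TPM in cell bodies and at 48.8 and 45.0 TPM in protrusions, with both protrusion values above both cell body values. The log2 fold change was 0.61 (SE 0.13, interval 0.29 to 0.93, limma adjusted p = 0.0506). Blocking on the replicate number gave a limma adjusted p of 0.0117. The 2 replicates differed by 0.58 and 0.64. It stood at rank 644 by fold, above 94.4% of all genes tested. After a correction for transcript GC content the log2 fold change was 0.46 (limma adjusted p = 0.0837, and 0.0166 once blocked). It was 0.55 when protrusions replicate 1 was dropped.

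*Kank1*, a paralog found in many epithelial cells, was at 7.61 and 7.78 TPM in cell bodies and at 6.85 and 5.45 TPM in protrusions. Both protrusion values were the lower ones, but the log2 fold change of -0.31 did not pass the test (interval -0.76 to 0.14, limma adjusted p = 0.296). *Kank3*, a paralog known from blood vessels, fell just short of the minimum, at 0.862 and 1.05 TPM in cell bodies and 0.816 and 1.16 TPM in protrusions. Its 71 and 81 reads gave a ratio of 1.11 (95% counting interval 0.795 to 1.55). The ribosomal protein gene *Rps28* overlaps *Kank3* on the opposite strand, and whether it added to these reads was not tested. Of 5 endothelial markers listed, the 4 found among the deposited genes were each under 0.1 TPM in every library. *Kank4*, a paralog outside the 10, had 1 read in all, in cell bodies replicate 2.

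*Kank2* took a larger share of the KANK family in both protrusion libraries. It made up 79.3% and 76.4% of the summed TPM of the family in cell bodies and 86.4% and 87.2% in protrusions. The *Kank2* to *Kank1* ratio was 4.27 and 3.68 in cell bodies and 7.12 and 8.26 in protrusions, 1.94-fold higher without overlap. The summed TPM of the family was 41.0 and 37.5 in cell bodies and 56.4 and 51.6 in protrusions.

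**Figure D2:**
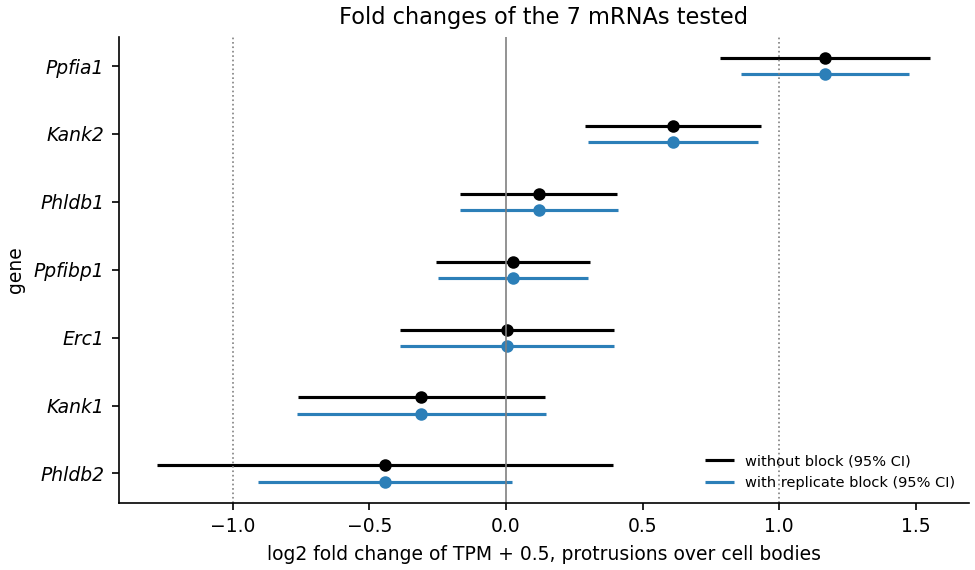
Log2 fold change of TPM + 0.5 in protrusions over cell bodies (points) with 95% confidence intervals (bars) for the 7 mRNAs tested, without the replicate block (black) and with it (blue). Dotted lines mark 2-fold differences. *Ppfia1* at 1.17 and *Kank2* at 0.61 have intervals above 0, and the other 5 intervals span 0.

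*Erc1*, the gene for ELKS, a scaffold that also docks secretory vesicles at the patches, was at 14.4 and 15.0 TPM in cell bodies and at 16.3 and 13.3 TPM in protrusions. The protrusion values lay on either side of the cell body values, and the log2 fold change was 0.00 (interval -0.39 to 0.40, limma adjusted p = 0.988). The *Ppfia1* to *Erc1* ratio was 1.95 and 1.57 in cell bodies and 3.92 and 4.0 in protrusions. The neuronal paralog *Erc2* was at 0.0533 to 0.0772 TPM.

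*Phldb1* encodes LL5α and was the second most abundant of the 10 mRNAs, at 60.6 and 55.3 TPM in cell bodies and 64.0 and 61.9 TPM in protrusions. Although both protrusion values were above both cell body values, the difference was small, with a log2 fold change of 0.12 (interval -0.17 to 0.41, limma adjusted p = 0.522). Its direction turned with a correction for GC content, to -0.13. *Phldb2* encodes LL5β, the form that anchors the complex in many cultured cells. It was at 12.9 and 10.2 TPM in cell bodies and at 11.9 and 5.76 TPM in protrusions, so protrusions replicate 2 stood below the other 3 libraries. The log2 fold change was -0.44 with a wide interval of -1.28 to 0.39 (limma adjusted p = 0.414), and 0.050 without protrusions replicate 2. The *Phldb1* to *Phldb2* ratio was 4.70 and 5.43 in cell bodies and 5.38 and 10.7 in protrusions, which overlapped. *Phldb3*, an LL5 paralog outside the 10, was at 0.512 to 0.901 TPM.

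**Figure D3:**
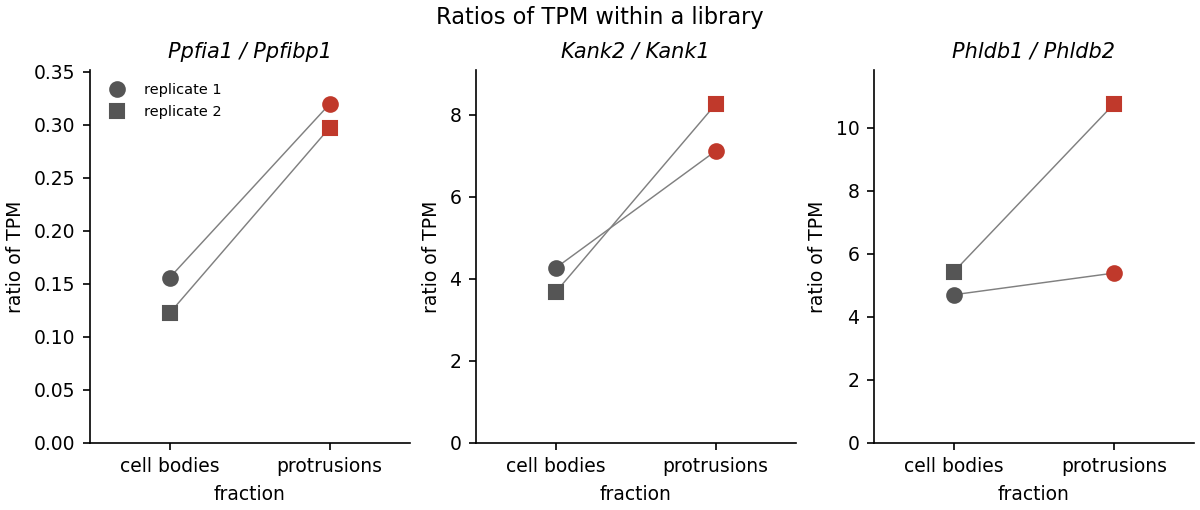
Ratio of the TPM of 2 genes in each library of cell bodies (gray) and protrusions (red), with circles for replicate 1 and squares for replicate 2, joined by replicate number. The *Ppfia1* to *Ppfibp1* and *Kank2* to *Kank1* ratios are higher in both protrusion libraries, and the *Phldb1* to *Phldb2* ratio overlaps between the fractions.

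The order of the levels was *Ppfibp1*, *Phldb1*, *Kank2*, *Ppfia1*, *Erc1*, *Phldb2*, *Kank1*, *Kank3*, *Ppfia3* and *Ppfibp2* in cell bodies. Neighbors in that order did not overlap over the 2 libraries except *Ppfia3* and *Ppfibp2*. In protrusions *Ppfia1* moved above *Kank2*, and its values overlapped those of *Phldb1*. *Phldb2* and *Kank1* overlapped there as well. Levels are compared in TPM, which is scaled for length.

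The study tied localization of *Kif1c* mRNA to GA-rich elements in the proximal part of its 3′ UTR, by deleting them. As a simple description, the longest unbroken run of A and G was read from the 3′ UTR of each of the 10 mRNAs. Such a run is a different measure from the deleted elements, which hold several GA-rich sequences. The GENCODE M21 transcript (GRCm38) of the principal isoform was used, on the strand of the gene, and positions are given on that build. The runs of the 7 mRNAs tested are shown in capitals with flanking bases in lower case, in order of fold change, to set *Ppfia1*, which passed the test, beside the 6 that did not.
*Ppfia1* (chr7:144477864-144477874, minus strand): ctagtGAAGAAAAAAAtcata
*Kank2* (chr9:21768643-21768660, minus strand): attatGGGAGGAGGAAGGGGGGGcaaga
*Phldb1* (chr9:44687318-44687341, minus strand): agcAGAGAGGAAAGGAAGAGGGAGAGGcct
*Ppfibp1* (chr6:147030566-147030576, plus strand): atactGAGAAAAAAGAcactg
*Erc1* (chr6:119575264-119575279, minus strand): gttacAGAAGGAGGGAGGAGGtgacc
*Kank1* (chr19:25434039-25434049, plus strand): accttGGGGGAGAGGActttg
*Phldb2* (chr16:45747631-45747639, minus strand): catacAAAAGGAAGcaggg

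Run lengths are given beside the folds as a description, and a relation between them was not tested. *Ppfia1* had 11 bases, below the median of 12 over the 10528 genes tested that have an annotated 3′ UTR, in a 3′ UTR of 1244 bases with no run of 12 or more. *Phldb1* had the longest, 24 bases, with 3 runs of 12 or more in 1250 bases, and *Kank2* had 18 bases, with 4 such runs in 2167 bases. *Erc1* had 16 bases and 4 such runs in a 3′ UTR of 4829 bases. The runs of *Ppfibp1* and *Kank1* were 11 bases, and that of *Phldb2* was 9. A run of 12 or more was present in 51.3% of the 10528 genes tested that have an annotated 3′ UTR. These are descriptions of the letters in 1 annotated 3′ UTR per gene, and say nothing of which 3′ UTR the cells used. Whether any of these mRNAs holds an element like that of *Kif1c* was not tested. Transcript GC content was 51.7% for *Ppfia1* and 57.4% for *Kank2*, 60.1% for *Phldb1* and 46.4% for *Phldb2*. Its median was 50.0% over the 11320 genes tested that have an annotated transcript.

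**Figure D4:**
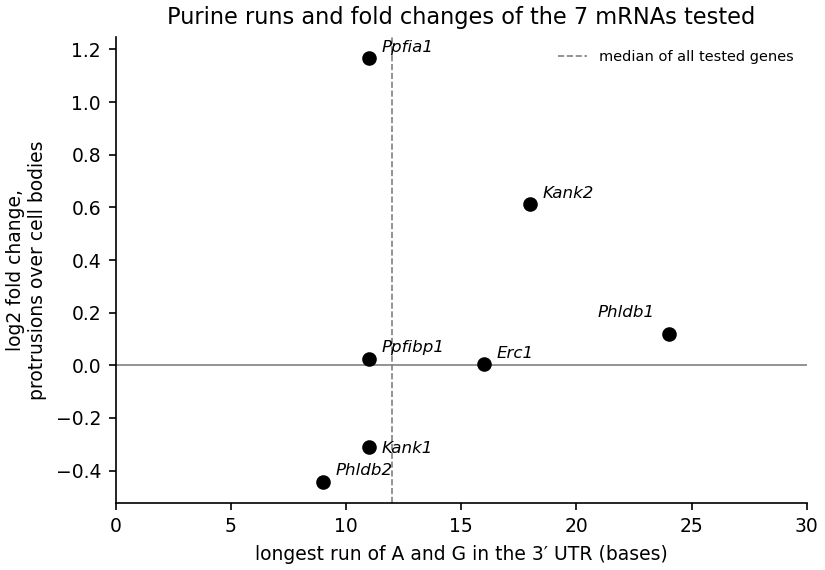
Longest run of A and G in the annotated 3′ UTR (bases, horizontal axis) against the log2 fold change, protrusions over cell bodies, of the 7 mRNAs tested. The dashed line is the median run of the genes tested that have an annotated 3′ UTR, 12 bases. *Ppfia1*, with the largest fold change, has a run of 11 bases, and *Kank2*, with the second largest, has 18. *Phldb1*, with the longest run, lies near 0. A relation between the axes was not tested.

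The proteins that the patches hold or bind were taken as 4 further lists. Of 12 genes for microtubule plus-end proteins and kinesins of the KIF21 type, 11 were tested and limma called 0 in either direction, against 7.25% of all genes. At an unadjusted p under 0.05, 1 was higher and 0 lower, against 12.6% and 18.7%, and limma voom called 0 higher and 0 lower, against 6.8% and 7.8%. Their median log2 fold change was 0.00. *Mapre1*, which encodes the end-binding protein EB1, was at 63.4 and 70.6 TPM in cell bodies and 86.5 and 84.2 TPM in protrusions (log2 fold change 0.35, limma adjusted p = 0.113). With the correction for GC content it was at 0.60 and passed (limma adjusted p = 0.0437). In that fit 1 gene of the list was higher, against 367 of 11320 genes. The GC correction with the replicate block called 2 of the list higher, against 1399 of 11320 genes. The block alone called 0 in either direction, against 8.08% higher and 13.3% lower. *Kif21a*, the kinesin that binds KANK1, had a log2 fold change of -0.30 (limma adjusted p = 0.234). *Clasp1* and *Clasp2*, which encode the microtubule stabilizers recruited by LL5β, had values of -0.13 and 0.07.

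Of 8 genes for talins, matrix receptors and their adaptors, all tested, 1 was lower and 0 were higher, against 4.25% and 2.99% of all genes. At an unadjusted p under 0.05, 2 were lower and 1 was higher, against 18.7% and 12.6% of all genes, and limma voom called 1 lower and 0 higher, against 7.8% and 6.8%. *Itgb1*, the gene for integrin β1, fell from 992 and 930.2 TPM in cell bodies to 535 and 381 TPM in protrusions. This was a fall of 1.09 on the log2 scale (SE 0.18, limma adjusted p = 0.0366, and 0.000698 with the replicate block). With the correction for GC content the log2 fold change was -0.885 (limma adjusted p = 0.0451). The log2 fold change of *Itgb1* was -1.33 to -0.844 when a library was left out. It then passed only without protrusions replicate 1, in fits that called few of all genes or none. With the replicate block 2 were lower and 0 higher, against 13.3% and 8.08% of all genes, the second being *Itga6* (log2 fold change -0.50, limma adjusted p = 0.0200 with the block). The talin genes *Tln1* and *Tln2* had log2 fold changes of 0.03 and 0.11, neither past the test.

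Of 10 genes for liprin partners, 7 were tested, 1 was higher and 0 were lower, against 2.99% and 4.25% of all genes. *Git1*, which encodes an ARF GTPase-activating scaffold bound by liprin-α1, rose from 18.1 and 21.2 TPM in cell bodies to 36.8 and 40.2 TPM in protrusions. The log2 fold change was 0.96 (SE 0.14, limma adjusted p = 0.0349, and 0.00190 with the replicate block), a rise of 1.94-fold, at rank 126 of all genes. *Git1* did not pass with any 1 library left out, in fits that called few of all genes or none. Its log2 fold change was then 0.845 to 1.07. With the correction for GC content it was smaller, at 0.75 (limma adjusted p = 0.0429). Its paralog *Git2* had a log2 fold change of 0.08, and *Arhgef7*, which encodes the exchange factor βPIX that GIT proteins bind, 0.19. *Ptprs*, a gene for a receptor phosphatase of the LAR type, had -0.02.

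Of 6 genes for exocytosis at the patches, all tested, limma called 0 in either direction, against 7.25% of all genes. At an unadjusted p under 0.05, 2 were higher and 0 lower, against 12.6% and 18.7% of all genes, and limma voom called 1 higher and 0 lower, against 6.8% and 7.8%. *Rab6a*, which encodes the GTPase of vesicles that dock at ELKS, was at 92.4 and 68.2 TPM in cell bodies and 121 and 103 TPM in protrusions (log2 fold change 0.49, limma adjusted p = 0.134). With the replicate block its limma adjusted p was 0.0206. Its log2 fold change was 0.27 without cell bodies replicate 2. *Rab6b* had a log2 fold change of 0.53 (limma adjusted p = 0.122) and was the gene called by limma voom. *Mical3*, whose product links RAB8A to ELKS, had 0.21.

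**Figure D5:**
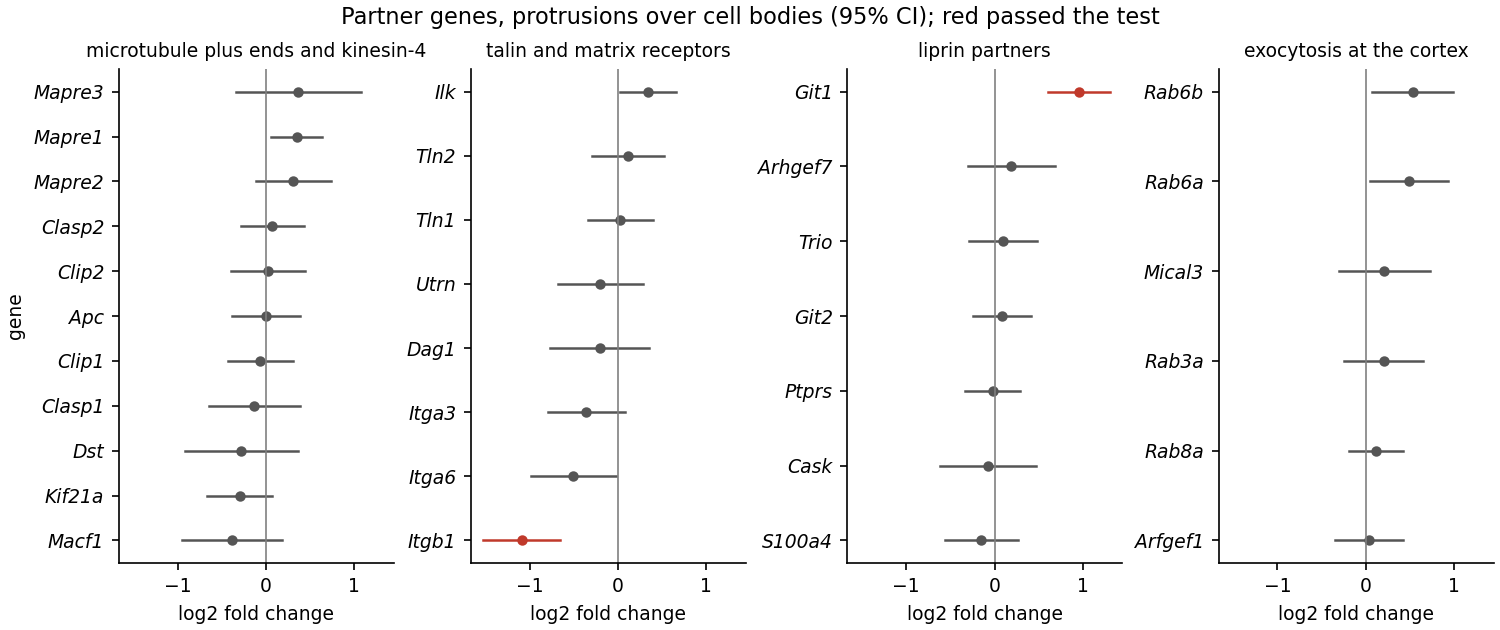
Log2 fold change, protrusions over cell bodies (points), with 95% confidence intervals (bars) for the partner genes tested in 4 lists, with those that passed the test in red. *Git1* at 0.96 and *Itgb1* at -1.09 are the 2 that passed.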

How the data were processed

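RNA-seq of YUMM1.7 cells was compared between 2 libraries of cell bodies and 2 of protrusions, grouped by the labels. The authors deposited TPM for 16537 genes per library, made from single-end, strand-specific reads on the mm10 build. The paper's methods name TopHat and edgeR, and the submitters' processing notes STAR, featureCounts, edgeR and FastQC. The deposited log2 fold changes, p-values and likelihood ratio scores hold the authors' own comparison and were not used. The authors' mean log2 CPM, also deposited, set the scale of the recovered reads, which were whole within 0.01 reads for all 16537 genes.

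A limma-trend model (limma 3.58.1, R 4.3.3) of log2(TPM + 0.5) was fitted to 11400 genes with a mean of 1 TPM or more, without a block and with 2 residual degrees of freedom. The steps were tested on simulated data. The simulated libraries were independent and held no replicate effect, so they do not check the fit without a block where replicates are paired. The study's supplementary table heads the fractions of a replicate as paired, and deviations within a replicate number correlated at 0.45 over genes. The block was therefore given beside calls it changed, and beside *Ppfia1*, *Git1* and *Itgb1*, whose calls it kept. The alternatives were pseudocounts of 0.1 and 1, no minimum or a mean of at least 5 TPM, libraries shifted to a common median, limma voom, a loess correction for transcript GC, the block, and leaving out each library. Gene models came from GENCODE M21.

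The 10 genes were taken by the list of symbols. Named besides were the called genes of each partner list, or else the 2 with the smallest p, the paralogs, and the 3 genes nearest *Ppfia1* in pattern. *Clasp1*, *Clasp2*, *Itga6*, *Tln1*, *Tln2*, *Git2*, *Arhgef7*, *Ptprs* and *Mical3* were named after their values were seen. Genes and lists were chosen with earlier results of these data known. A list of 5 blood and immune markers, 4 of them in the table, summed to 2.10 to 3.98 TPM per library. Of this *Cd68* made up most, at 2.09 to 3.93 TPM. *Hba-a1* and *Hbb-bs* were above 0 only in protrusions replicate 1, at 0.133 and 0.348 TPM. The 4 melanocyte markers in the table, of 8 listed, summed to 9.11 to 11.4 TPM.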

Additional observations from a re-analysis of the deposited data

How the results depend on the processing

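*Ppfia1* kept its direction under all 13 alternatives (log2 fold change 1.04 to 1.30) and passed the test under 8. It did not pass with no minimum on TPM (adjusted p = 0.0872 from limma) or without any 1 library. *Kank2* kept its direction under all 13 (0.46 to 0.70), with adjusted p from limma of 0.0117 to 0.208, and passed under 6. All genes called higher numbered 341 of 11400 in the main fit, and more under each setting that called *Kank2*. With 11400 genes they were 358 with a pseudocount of 1, 493 with a common median, 775 with limma voom and 921 with the replicate block. With a minimum of 5 TPM they were 505 of 9373, and with the GC correction and the block 1399 of 11320. The members called higher were 2 under each of these 6 settings, and 0 with no minimum. Without any 1 library they were 0 (range 0 to 0).

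Over all genes, limma called 0 higher and 0 lower with no minimum on TPM, although 3630 had an unadjusted p under 0.05, and 505 higher and 801 lower with a minimum of 5 TPM. With the replicate block 921 were higher and 1513 lower, with limma voom 775 and 889, and with the GC correction and the block 1399 and 1630. Leaving out a library gave 0 to 14 higher and 0 to 144 lower, with 1899 to 3157 genes at an unadjusted p under 0.05. Those fits leave a fraction with 1 library, assumed to vary like the other.

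Directions turned only for mRNAs that did not pass the test. *Ppfibp1* ranged from -0.053 to 0.10, *Erc1* from -0.14 to 0.14 and *Phldb2* from -0.93 to 0.050 when a library was left out. Below 0 were *Ppfibp1* at -0.02 and *Erc1* at -0.03 without cell bodies replicate 1, and *Ppfibp1* at -0.053 and *Erc1* at -0.14 without protrusions replicate 1. *Phldb2* was at 0.050 without protrusions replicate 2. *Phldb1* was at -0.13 with the GC correction, with or without the block. The cause was not tested. A common median shifted all log2 fold changes upward by under 0.1, and with it, limma voom or the GC correction 46.5%, 46.6% and 45.8% of all calls were higher, against 41.3%. The block changed no member's call other than that of *Kank2*. *Ppfia3* and *Ppfibp2* rest on under 10 reads in a library, which limits what can be said of them.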
